A study of Arabidopsis thaliana with 6 samples.

Results

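The type 1 non-specific lipid transfer proteins (LTPs) were examined in 4-d-old *Arabidopsis* seedlings that lack REGULATOR OF CHLOROPLAST BIOGENESIS (RCB). The genes were taken by locus from a list of 9, and 5 of these 9 have a named probe set on the array, among 22746 probe sets tested. The mutant *rcb-10* carries a T-DNA insertion in an intron of *RCB* in the Col-0 ecotype, is tall and albino, and was compared with wild-type Col-0. After 4 days of cold and dark on medium without sucrose, both genotypes were kept for 4 days under R light (10 μmol m-2 s-1). Roots, hypocotyls and cotyledons were pooled in each RNA sample, and 3 replicates grown separately per genotype gave 6 ATH1 arrays, where each probe set reports a transcript as a linear signal in arbitrary units. A second *rcb* allele or a rescued line was not among these samples, and *RCB* itself has no named probe set here.

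LTPs of this type are small secreted proteins in which conserved cysteines form disulfide bridges around a cavity that holds a lipid. They are found mostly in the cell wall of the epidermis and are placed in the transport of cutin and wax components to the plant surface. Several of them also respond to drought, abscisic acid (ABA) and pathogens. The genes lie in part as neighbouring copies: *LTP2* is followed directly by *LTP1* on chromosome 2, *LTP4* by *LTP3* on chromosome 5 and *LTP12* by *LTP5* on chromosome 3. Near copies can share probes, and probe sequences were not analysed here.

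How the probe sets were named bears on what can be read from them. *AT2G18370* is assigned to its probe set by a platform annotation that takes no account of expression. The probe sets of *LTP1*, *LTP2*, *LTP3* and *LTP6* are named through the study's list of genes that change at least 2-fold between these same arrays, so that these 4 were in effect selected on their measured fold and adjusted p in this contrast and had to differ. Their values, and those of *AT2G18370*, are therefore given as a description with no test. *LTP4*, *LTP5*, *LTP7* and *LTP12* have no named probe set and are not analysed here. *LTP12* is known as a gene of the tapetum, the nutritive layer of the anther, and *LTP4* as a close relative of *LTP3*. A signal below 43.8, the highest value of the control probe sets for the bacterial trp genes, was taken as background. Per array, 19.5% to 21.7% of signals were under it. Over all probe sets, log2 signals correlated at 0.945 to 0.953 between arrays of one genotype and at 0.919 to 0.928 between genotypes.

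The measured LTP genes went both ways in *rcb-10*. *LTP1* and *LTP6* were lower than in Col-0, *LTP2* and *LTP3* were higher, and *AT2G18370* had overlapping signals. Whole seedlings were measured, so fewer cells of a type and less RNA per cell cannot be told apart. With limma's adjusted p below 0.05 and a change of 2-fold or more, criteria that their naming had already used, 4 of the 5 passed, where 7.22% of all probe sets did. In *rcb-10* 2 of them were lower, beside 4.41% of all probe sets, and 2 were higher, beside 2.8%. The arrays of the genotypes did not overlap for the same number, 4 of 5, as for 40.6% of all probe sets. The median log2 change was 0.23 over the 5 genes and −0.04 over all probe sets. Since 4 of the 5 were named through their change on these arrays, nothing is read from these counts and medians.

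*LTP1* (*AT2G38540*) encodes an LTP of the epidermal cell wall that binds calmodulin. Its signals were 6765, 7692 and 8218 in *rcb-10*, against 17430, 18264 and 15791 in Col-0. All 3 *rcb-10* arrays lay far below the lowest Col-0 array, and the replicates of each genotype stayed close together. The means were 7558 ± 736 in *rcb-10* and 17161 ± 1258 in Col-0 (SD, n = 3 arrays each). The log2 change was −1.19 (standard error 0.13), or 2.27-fold lower in *rcb-10*. In these values it is the member nearest to the 2-fold threshold from inside. With quantile normalization *LTP2* is nearer in fold (log2 change 1.07, against −1.36 for *LTP1*) but no longer met the adjusted p. On the other side of the 2-fold threshold was *AT2G18370*, at 1.18-fold.

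*LTP2* (*AT2G38530*) encodes an LTP known from the epidermis of dark-grown hypocotyls, where it helps to seal the cuticle to the cell wall. It also stands among the PIF-induced genes on the study's list of direct targets of the PIF transcription factors. Its signals were 14724, 22226 and 23875 in *rcb-10*, against 6519, 8168 and 9911 in Col-0. The lowest *rcb-10* array was above the highest Col-0 array. *LTP2* averaged 20275 ± 4877 in *rcb-10* and 8199 ± 1696 in Col-0 (SD, n = 3 each), a log2 change of 1.30 (standard error 0.25), or 2.46-fold higher.

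**Figure D1:**
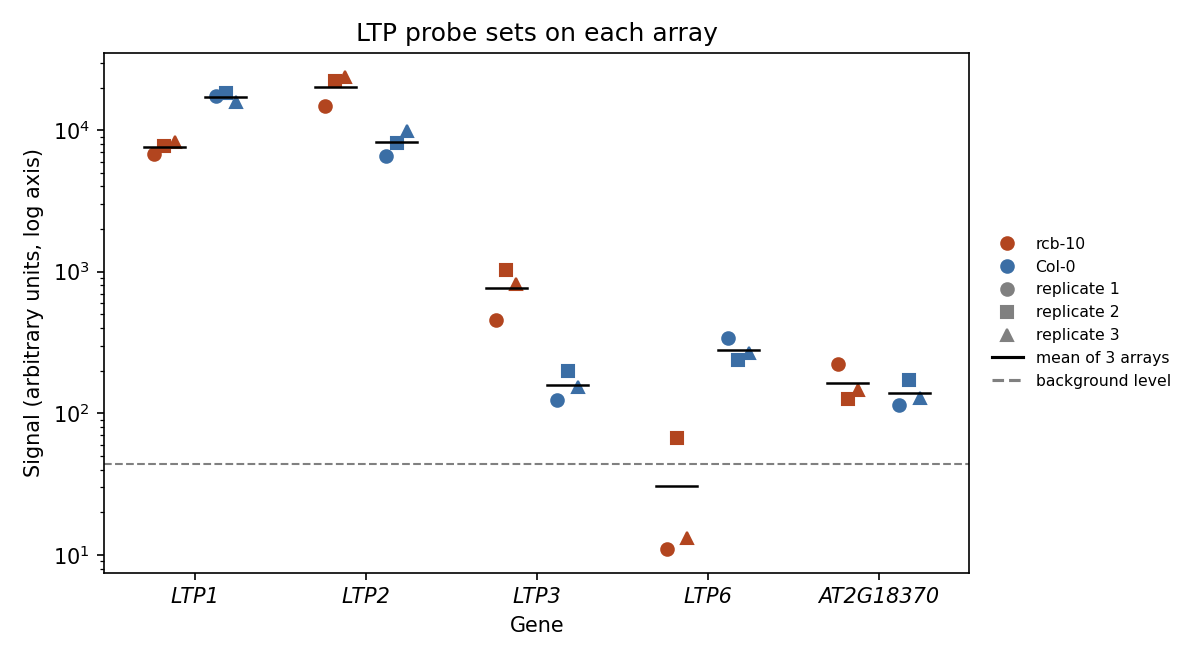
Signal of the 5 LTP probe sets on each array (log axis, arbitrary units), with *rcb-10* (rust) left of Col-0 (blue), 1 symbol for each replicate, black bars for the mean of 3 arrays and a dashed line for the background level of 43.8. *LTP1* and *LTP6* lie lower and *LTP2* and *LTP3* higher in *rcb-10* on every array, the signals of *AT2G18370* overlap, and *LTP6* falls under the background level on 2 of the 3 *rcb-10* arrays.

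*LTP1* and *LTP2* are neighbours in the genome and differed in opposite directions. Levels of different probe sets cannot be set against each other. The difference of the *LTP2* and *LTP1* log2 signals within one array is free of any single factor that scales that array, but not of quantile normalization. Both genes were named through their change on these arrays, and a shift of this difference follows from their opposite changes. It is therefore given as a description with no test. The log2 signal of *LTP2* minus that of *LTP1* was 1.12, 1.53 and 1.54 on the *rcb-10* arrays, against −1.42, −1.16 and −0.67 on the Col-0 arrays. Every *rcb-10* array lay above every Col-0 array. The mean was 1.40 ± 0.24 in *rcb-10* and −1.08 ± 0.38 in Col-0 (SD, n = 3 each), a shift of 2.48 (standard error 0.26), so that the ratio of *LTP2* to *LTP1* signal was 5.58-fold higher in *rcb-10*.

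**Figure D2:**
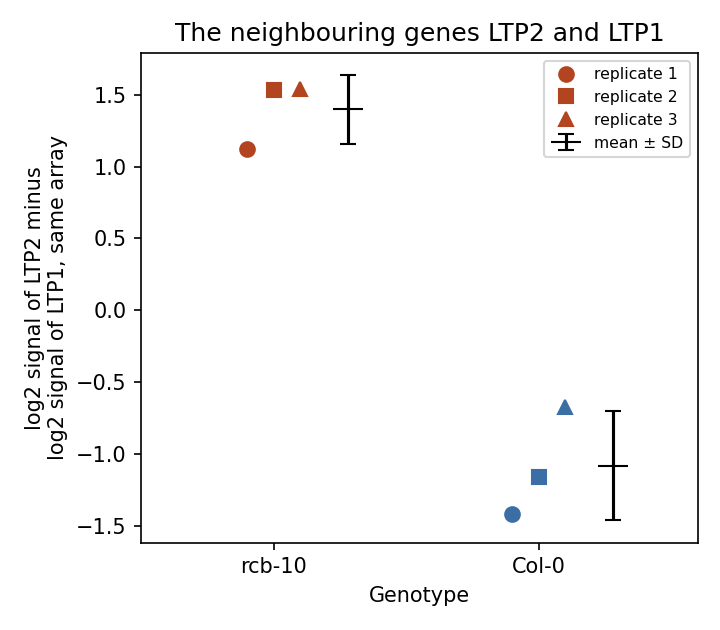
The log2 signal of *LTP2* minus the log2 signal of *LTP1* on the same array (vertical axis), for 3 *rcb-10* arrays (left) and 3 Col-0 arrays (right), with the mean ± SD beside the points. The values run from 1.12 to 1.54 in *rcb-10* and from −1.42 to −0.67 in Col-0. Both genes were named through their change on these arrays.

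*LTP3* (*AT5G59320*) is known as a gene induced by drought and ABA. It gave 456, 1033 and 812 in *rcb-10*, against 124, 198 and 154 in Col-0. Every *rcb-10* array was well above the highest Col-0 array, with replicate 1 the lowest in both genotypes. *LTP3* averaged 767 ± 291 in *rcb-10* and 158 ± 37.1 in Col-0 (SD, n = 3 each), a log2 change of 2.22 (standard error 0.35), or 4.67-fold higher. The neighbouring gene *LTP4* is a close relative of *LTP3*, and how far the probe set also binds its transcript was not tested.

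*LTP6* (*AT3G08770*) encodes another secreted LTP of the family. Its signals were 11.0, 67.4 and 13.2 in *rcb-10*, against 340.0, 236 and 267 in Col-0. In *rcb-10* only replicate 2 was above background, whereas all 3 Col-0 arrays were above it. The measured means were 30.5 ± 31.9 in *rcb-10* and 281 ± 53.2 in Col-0 (SD, n = 3 each). With signals under background raised to it, *LTP6* was at least 5.50-fold lower in *rcb-10*, a log2 change of −2.46, and this bound is what the signals allow. The log2 change of −3.70 (standard error 0.72) fitted to the signals as deposited rests on values under background and is no measure of the size.

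*AT2G18370*, the member named independently of these arrays, gave 222, 127 and 145 in *rcb-10*, against 114, 171 and 129 in Col-0. The signals overlapped, and *rcb-10* replicate 1 alone lay above all Col-0 arrays. Its mean was 165 ± 50.8 in *rcb-10* and 138 ± 29.8 in Col-0 (SD, n = 3 each), a log2 change of 0.23 with a standard error of 0.27. Without *rcb-10* replicate 1 the log2 change was −0.01. Of all probe sets, 67.2% differed by at least as much. The shares were 9.60% for *LTP1*, 7.71% for *LTP2* and 1.42% for *LTP3*. Those 3 genes were selected on their fold on these arrays, so nothing is read from their shares.

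The members also differed in how evenly their replicates behaved. The SD of log2 signals among *rcb-10* arrays was 0.14 for *LTP1*, 0.38 for *LTP2*, 0.61 for *LTP3* and 0.42 for *AT2G18370*, beside a median of 0.21 over all probe sets. Among Col-0 arrays it was 0.11 for *LTP1* and between 0.27 and 0.34 for the other 4, beside a median of 0.23. *LTP1* was thus less variable than the median probe set in both genotypes, and *LTP2*, *LTP3* and *AT2G18370* were more variable. For *LTP6* the spread among *rcb-10* arrays is not read, because 2 of them were under background. Replicate 1 gave the lowest *rcb-10* signal for *LTP1*, *LTP2* and *LTP3* and the highest for *AT2G18370*. Over the 6 arrays the log2 signals of *LTP2* and *LTP3* correlated at r = 0.97, those of *LTP1* and *LTP6* at 0.91, and those of *LTP1* and *LTP2* at −0.88. These 6 arrays share a single contrast between genotypes, and the coefficient with *LTP6* also includes signals under background.

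Some genes outside the family followed individual LTP genes closely over the 6 arrays. Among 13435 probe sets assigned to 1 gene, those most like *LTP1* were *AT1G09310* (r = 0.999) and *AT3G56080* (r = 0.998), at 7618 ± 605 and 358 ± 37.8 in *rcb-10* against 16548 ± 1506 and 736 ± 35.8 in Col-0. Those most like *LTP2* were *AT2G39210* (r = 0.998) and *AT3G10300* (r = 0.996), those most like *LTP3* were *AT1G71140* (r = 0.999) and *AT2G17350* (r = 0.998), and those most like *LTP6* were *AT5G14150* (r = 0.998) and *AT3G05100* (r = 0.997). The coefficients with *LTP6* include its signals under background on 2 *rcb-10* arrays, and *AT5G14150* was under background on all 3. The arrays share the contrast between genotypes and their scaling, and 608 probe sets passed r = 0.95 with *LTP1*, 193 with *LTP2*, 178 with *LTP3* and 213 with *LTP6*, so a high coefficient sets no gene apart.

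Lipid transfer proteins beyond the members were taken from a list of 9 relatives, of which 3 are assigned by the platform annotation. Of these, *AT5G01870* fell, with 89.6, 106 and 90.8 in *rcb-10* against 203, 172 and 146 in Col-0, all *rcb-10* arrays lying below all Col-0 arrays. Its mean was 95.6 ± 9.28 in *rcb-10* and 174 ± 28.7 in Col-0 (SD, n = 3 each), which gave a log2 change of −0.85 (standard error 0.17) with an adjusted p of 0.0254 in limma. The call was lost when any array other than Col-0 replicate 3 was left out (adjusted p up to 0.0834). *AT5G48490* had 10779 ± 935 in *rcb-10* and 11689 ± 293 in Col-0 (log2 change −0.12, standard error 0.12, adjusted p = 0.527), and *AT2G15325* stayed at background on 2 of 3 *rcb-10* arrays and on all 3 Col-0 arrays. At any fold, 16.9% of all probe sets passed the adjusted p, 10.2% lower and 6.76% higher.

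A further 4 relatives are named only through the list of changed genes and are described without a test. They carry LTPs attached to the membrane by a glycosylphosphatidylinositol (GPI) anchor and *DIR1*, a signal carrier of systemic resistance. *LTPG1*, required for normal surface wax, gave 2213, 3082 and 3503 in *rcb-10*, against 5889, 5482 and 6062 in Col-0. *LTPG2* gave 2758, 3014 and 3278 in *rcb-10*, against 5984, 6177 and 6684 in Col-0. *LTPG6* had a log2 change of −0.86 (standard error 0.16), which is 1.82-fold in these values. All 3 GPI-anchored genes were lower in *rcb-10*, with no overlap between the genotypes, as for 40.6% of all probe sets. They were named through their change on these arrays, so nothing is read from this count. *DIR1* was higher, with 5905, 5574 and 5282 in *rcb-10*, against 1802, 2443 and 2307 in Col-0 (log2 change 1.37, standard error 0.15).

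**Figure D3:**
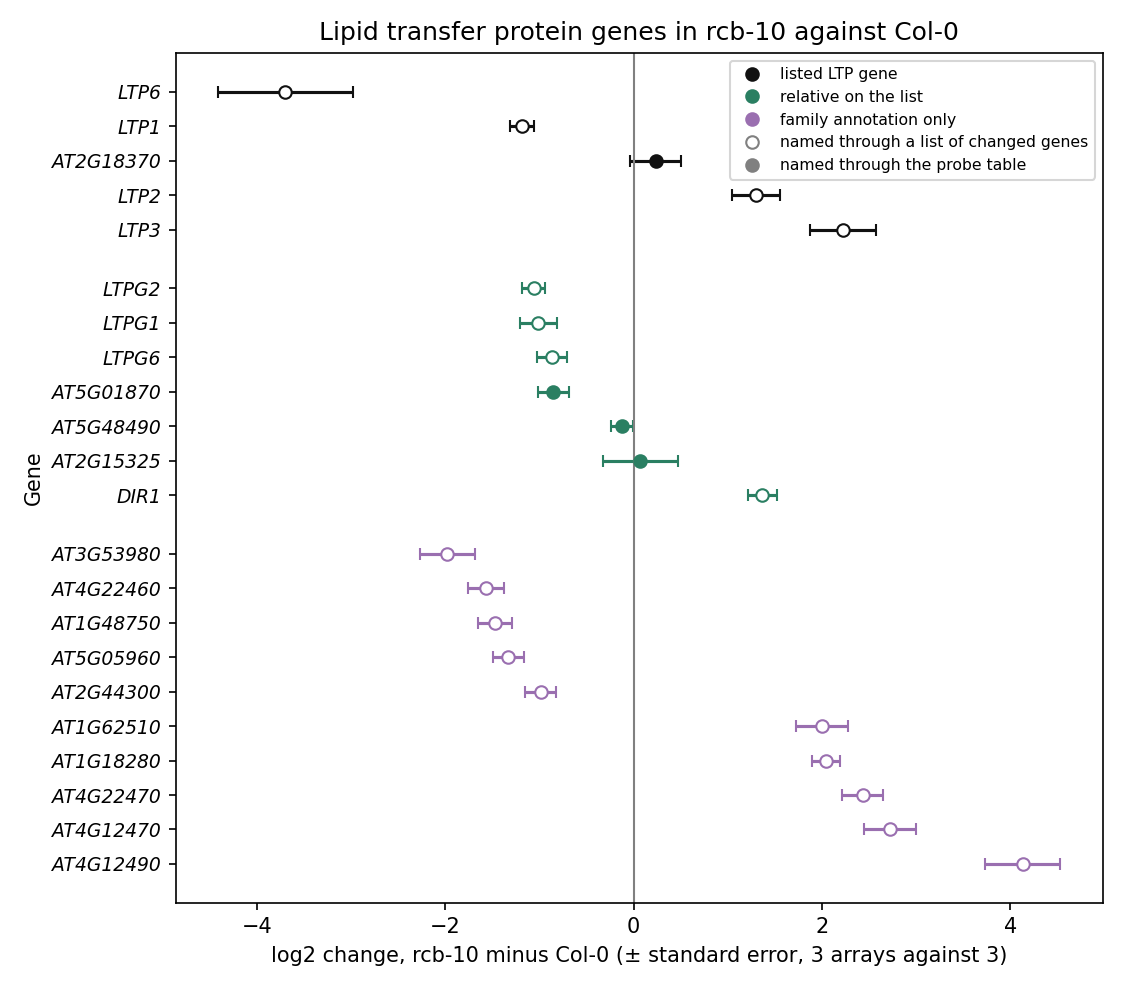
The log2 change in *rcb-10* against Col-0 (horizontal axis) with its standard error (bars, 3 arrays against 3) for the 5 LTP genes (black), 7 relatives (green) and 10 further genes annotated to the family (purple). Open symbols mark genes named through a list of changed genes, which had to differ, and filled symbols mark genes named through the platform annotation, among which *AT5G01870* alone passed the test, and *LTP6* is drawn from signals as deposited, 2 of them in *rcb-10* under background.

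Cutin and wax genes were compared because surface LTPs are placed in that pathway. Of 41 listed genes 3 are assigned by the platform annotation, and none of the 3 passed in limma, where 16.9% of all probe sets passed at any fold. Only *WSD1* had an unadjusted p under 0.05 in limma, from signals at background, and none passed by the methods' t-test. *WSD1*, a wax ester synthase gene, and *SHN3*, an activator of cuticle genes, were at background on all 6 arrays. *CUS2*, a cutin synthase gene, had 43.5 ± 21.5 in *rcb-10* and 41.1 ± 16.7 in Col-0 (SD, n = 3 each; adjusted p = 0.965). These 3 therefore hold little information on the pathway. Another 2 are named through the list of changed genes. *HTH*, which acts in the making of cutin monomers, gave 273, 412 and 324 in *rcb-10*, against 1595, 1126 and 1167 in Col-0. *BDG1*, an epidermal hydrolase gene needed for an intact cuticle, gave 172, 228 and 221 in *rcb-10*, against 892, 778 and 869 in Col-0. Both had to differ, and they were lower on every *rcb-10* array, with log2 changes of −1.95 (standard error 0.22) and −2.04 (standard error 0.15). None of 10 listed suberin genes has a named probe set.

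Genes of the response to ABA and dehydration were compared because *LTP3* is known as one of them. Of 16 listed genes 3 are assigned by the platform annotation, and none of these passed in limma (1 at an unadjusted p under 0.05, none by the methods' t-test). At any fold 16.9% of all probe sets passed, and with so few genes nothing is read from this count. *COR47*, a dehydrin gene, gave 13954, 13789 and 14505 in *rcb-10*, against 7245, 11297 and 10663 in Col-0. Its arrays did not overlap, and the log2 change was 0.56 (standard error 0.20, adjusted p = 0.110, but 0.0493 without the dimmest 25% of probe sets and 0.0168 when variances were fitted robustly with a trend). *LTI30*, another dehydrin gene, had 1849 ± 375 in *rcb-10* and 1337 ± 390 in Col-0 (SD, n = 3 each; log2 change 0.49, adjusted p = 0.273). *COR15A* was at background on 2 of 3 *rcb-10* arrays and on all 3 Col-0 arrays. Of the genes named through the list of changed genes, *RD26*, a NAC transcription factor gene, gave 1924, 1572 and 1914 in *rcb-10*, against 875, 1014 and 791 in Col-0. *ADH1*, an alcohol dehydrogenase gene named in the same way, had a log2 change of 0.96 (standard error 0.36). In these values *ADH1* was 1.94-fold higher and met neither the 2-fold threshold nor the adjusted p in limma.

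**Figure D4:**
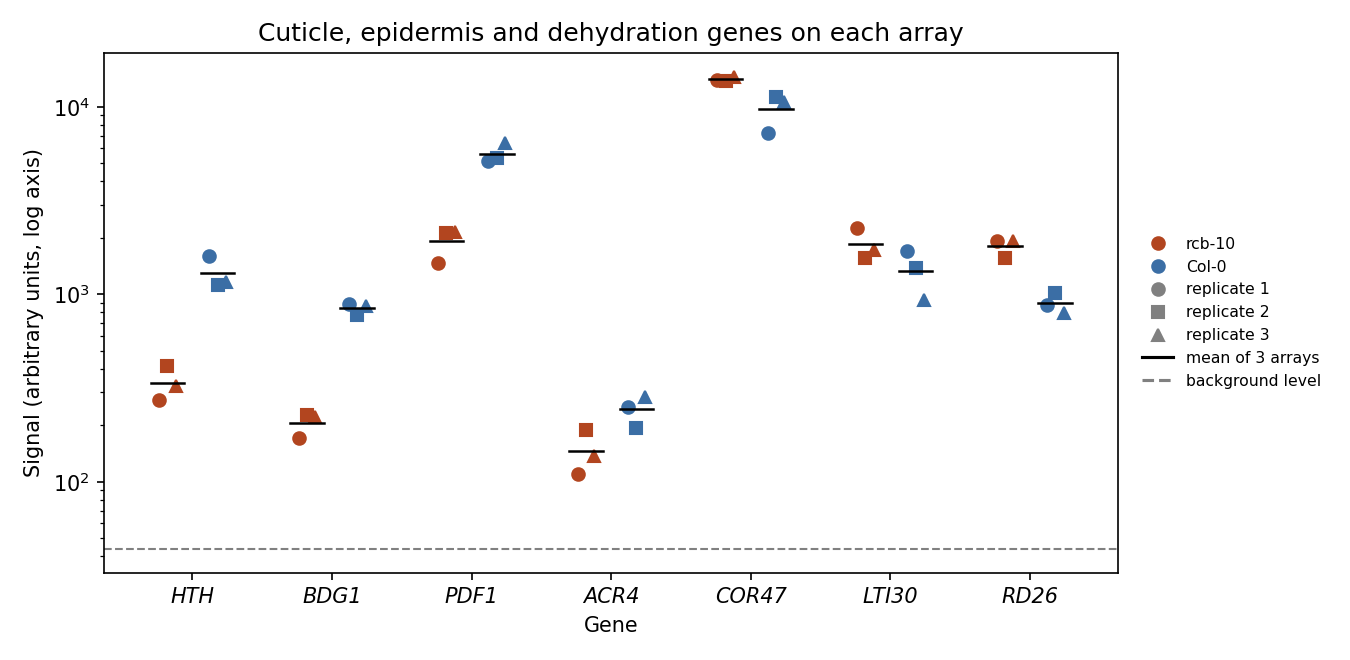
Signal of cuticle genes (*HTH*, *BDG1*), epidermis markers (*PDF1*, *ACR4*) and dehydration genes (*COR47*, *LTI30*, *RD26*) on each array (log axis, arbitrary units), drawn as for the LTP genes with *rcb-10* left of Col-0. The cuticle and epidermis genes lie lower on every *rcb-10* array than on any Col-0 array, whereas *LTI30* overlaps. *HTH*, *BDG1*, *PDF1* and *RD26* were named through the list of changed genes and had to differ.

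Markers of the cell types in a seedling were set beside these values. *PDF1*, a marker of the outermost cell layer that is named through the list of changed genes, gave 1463, 2126 and 2157 in *rcb-10*, against 5116, 5366 and 6387 in Col-0. *ACR4*, an epidermal receptor kinase gene and the only 1 of 9 epidermis markers in the platform annotation, ranged from 110.4 to 189 in *rcb-10* and from 193 to 284 in Col-0 (log2 change −0.76, standard error 0.25, limma adjusted p = 0.0991). Both epidermal markers were lower on every *rcb-10* array, as were *LTP1*, *LTP6*, *HTH* and *BDG1*. All of these but *ACR4* were named through the list of changed genes and had to differ. The arrays of the genotypes did not overlap for 40.6% of all probe sets. The part of the epidermis in the values of the LTP and cuticle genes was not tested. *LTP2*, also an epidermal gene, lay the other way. Of 12 root markers 2 are in the platform annotation, with summed signals of 18752 to 20095 in *rcb-10* and 18567 to 23415 in Col-0. Of these, *EXPA7*, a root hair expansin gene, fell, with a log2 change of −1.06 in limma (adjusted p = 0.0328, standard error 0.23), a call lost in 9 of the 14 alternatives (adjusted p up to 0.0914), and *PYK10*, a root glucosidase gene, had a log2 change of −0.09 (adjusted p = 0.677). *PYK10* makes up nearly all of that sum. Another 2 root markers are named through the list of changed genes and were lower with no overlap, *TIP2;3*, a tonoplast aquaporin gene (log2 change −1.09, standard error 0.27), and *PRP3*, a root hair cell wall protein gene (log2 change −1.45, standard error 0.25). *RCA*, the only measured marker of 5 for mesophyll, ranged from 22251 to 24741 in *rcb-10* and from 21896 to 23990 in Col-0. Of 11 tapetum markers 2 were measured, with summed signals of 56.1 to 82.1 in *rcb-10* and 61.2 to 72.6 in Col-0. Of the 2, *AMS* was at background on every array, and *A9* on all 3 *rcb-10* arrays and on 2 of 3 Col-0 arrays. None of 9 vascular markers is in the platform annotation, and the 3 named through the list of changed genes were lower in *rcb-10*, among them *XCP1*, a xylem protease gene (log2 change −1.66, standard error 0.31). Of these, *CESA4* differed by 1.58-fold in these values, which is under the 2-fold of that list.

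Genes next to the LTP loci were read out independently of how the members were named. The nearest 2 genes with a probe set on either side of each of the 9 loci came to 24 different genes. Of these, 2 passed an adjusted p under 0.05 in limma, both lower in *rcb-10*, where 16.9% of all probe sets passed at any fold. *AT2G38550*, directly after *LTP1*, had 638 ± 44.4 in *rcb-10* and 875 ± 22.5 in Col-0 (SD, n = 3 each), and the log2 change was −0.46 (adjusted p = 0.0437, standard error 0.11). That call was lost whichever array was left out (adjusted p up to 0.138), and with each array centred on its median (log2 change −0.29, adjusted p = 0.143). *AT2G38510*, the nearest protein-coding gene before *LTP2*, passed as deposited (adjusted p = 0.00433), but all of its 6 signals were at background, so no fold is given. The median log2 change of the 24 genes was −0.02.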

How the data were processed

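The authors deposited 1 linear intensity per probe set and array, already brought to a common trimmed mean on all 6 arrays (trimmed by 2% at either end). GeneSpring GX with RMA is stated in the methods. RMA gives log values, and how linear intensities were obtained was not given in the sources. These intensities were turned into log2 values and fitted with limma 3.58.1 in R 4.3.3 (empirical Bayes variances, genotype as the only term, no filter), and p-values were adjusted by Benjamini-Hochberg over all 22746 probe sets other than the 64 array controls. Python 3.11.15, pandas 2.3.3 and matplotlib 3.10.9 served for tables and plots.

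Genes were named from the platform annotation, where 13513 probe sets have 1 gene, or otherwise from the study's list of changed genes, whose pairs of probe set and locus alone were read. TAIR10.1 served for names and gene order only. The members and gene lists were chosen with earlier results of these data known. Named were every measured LTP gene, up to 4 called members of each list with the largest change (6 for cutin and wax and for ABA) or 2 where fewer than 2 passed, called neighbours, and for 4 LTP genes the 2 most similar probe sets. Genes named through the list of changed genes alone were left out of counts, and those described were chosen after their values were seen. The number of arrays limits the precision. Results were recomputed after quantile normalization, after centring arrays on their medians, with low signals raised to background, without the dimmest 25%, with trend and robust variances, with weights for arrays, with a replicate block, by the methods' t-test, and leaving out each array. Promoter, protein and probe sequences were not analysed here.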

Additional observations from a re-analysis of the deposited data

How the results depend on the processing

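The log2 changes of *LTP1*, *LTP2*, *LTP3* and *LTP6* kept their sign in all 14 alternatives and that of *AT2G18370* in 13 of 14, which for the 4 named through their change on these arrays is no sign of stability. *LTP1* had −1.36 with quantile normalization and −1.01 with each array centred on its median, and *LTP6* −2.46 with low signals raised. When each array in turn was left out, the log2 change ran from −1.25 to −1.11 for *LTP1*, from 1.14 to 1.51 for *LTP2*, from 1.97 to 2.56 for *LTP3*, from −4.53 to −3.22 for *LTP6* (signals under background included) and from −0.01 to 0.40 for *AT2G18370*. As a description and no test of these genes, 2 of the 4 LTP genes that met the thresholds also did so by the methods' t-test (*LTP1* and *LTP3*), and between 1 and 3 did so without 1 array. Leaving out either Col-0 replicate 1 or *rcb-10* replicate 3 left only *LTP1*, and 2 passed without Col-0 replicate 2. With quantile normalization 3 met the thresholds, and *LTP2* did not. Centring each array on its median moved the array-wide median log2 change from −0.04 to 0.13 and the lower share of those called from 61.1% to 40.7%.

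Of other lipid transfer genes, 0 to 1 passed without 1 array. Of cell type markers, 1 passed as reported, 0 with quantile normalization, median centring or the methods' t-test, 2 without the dimmest 25% and with trend and robust variances, and 0 to 1 without 1 array. Of ABA genes, 1 passed without the dimmest 25% and with trend and robust variances. Of neighbours, 1 passed with quantile normalization, median centring or low signals raised, 3 with trend and robust variances or array weights, and 1 to 2 without 1 array. Over all probe sets, 1642 were called as reported and 1068 to 1422 without 1 array, the fewest when Col-0 replicate 1 was dropped. Dropping *rcb-10* replicate 3 gave 1079. Over 39 other genes and their alternatives, 492 of 527 values kept their side of the threshold, 26 lost the call, 9 gained it and none reversed. Only *AT5G01870*, *EXPA7*, *AT2G38510* and *AT2G38550* of these genes were called as reported, so all 26 losses fell on them. Most of the 492 values are of genes that were not called in either fit, and their share is no measure of how stable a call was.

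Samples of the 2 genotypes share replicate numbers, but the deviations of same-numbered arrays from their group means correlated at 0.03, −0.02 and 0.02, so the numbers were not taken as pairs. With the replicate block, 0 of the LTP genes and 0 of all probe sets passed at 2-fold or more. At any fold, 0 of the other lipid transfer genes, 0 of the markers and 0 of the neighbours passed. The fit then has fewer residual degrees of freedom.

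Groups of 3 arrays were too small for a search for outlying samples. Signals near or under background, as for *LTP6* in *rcb-10*, limit that change to a bound.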

Other observations

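Other genes annotated to the wider lipid transfer protein family also differed in both directions. Outside the lists above, 10 carry such an annotation in the study's list of changed genes, through which they were selected after their values were seen, so they are described with no test. Signals in *rcb-10* were below those in Col-0 for 5 of them and above for 5. *AT3G53980* averaged 292 ± 14.9 in *rcb-10* and 1213 ± 517 in Col-0 (SD, n = 3 arrays each), and *AT1G48750* averaged 550.5 ± 89.8 in *rcb-10* and 1526 ± 229 in Col-0. On the other side, *AT1G62510* averaged 5642 ± 133 in *rcb-10* and 1480.3 ± 572 in Col-0, and *AT1G18280* averaged 311 ± 37.5 in *rcb-10* and 75.5 ± 7.80 in Col-0.

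*AT4G22460* and *AT4G22470* have consecutive locus numbers and, like *LTP1* and *LTP2*, differed in opposite directions. *AT4G22460* averaged 106 ± 13.1 in *rcb-10* and 318 ± 64.6 in Col-0 (log2 change −1.57, standard error 0.19), and *AT4G22470* averaged 508 ± 112 in *rcb-10* and 93.4 ± 15.9 in Col-0 (log2 change 2.43, standard error 0.22). The highest log2 changes of the 10 were those of *AT4G12470* and *AT4G12490*, at 2.72 (standard error 0.27) and 4.13 (standard error 0.40).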
